A study of Arabidopsis thaliana with 48 samples.

Results

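The 80 genes described here were lower in seedlings of the Arabidopsis thaliana mutant card1-2 (card1) than in wild type (WT) at every time sampled under the solvent DMSO. They were found among the 33602 genes of the count table from the DMSO libraries alone. They were chosen by these measured DMSO levels. Counts were scaled to the gene counts of their library (CPM) and averaged over the 3 libraries of a group. The difference of log2(mean CPM + 1), card1 minus WT, had to be at or under -0.5 at each of 0, 0.5, 1 and 6 h. The members made up 0.238% of the table, all 80 are annotated as protein coding, and 24 other genes were higher in card1 by the mirrored rule. The DMSO differences are therefore a description, and differences were tested only between DMBQ groups, which the rule did not use. The fits held the DMBQ libraries alone, except for 1 alternative fit of all 48 libraries, whose spread came partly from the DMSO ones.

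The study sequenced mRNA of whole Col-0 seedlings, 7 days old and grown in liquid medium. Both genotypes carried aequorin, a luminescent calcium reporter, so card1 means the card1-2 mutation in the aequorin background and WT means the aequorin line without it. No other mutant allele was among these libraries. Other differences between the lines thus cannot be told apart from effects of the mutation. Seedlings of card1 and of WT received 5 µM DMBQ (2,6-dimethoxy-1,4-benzoquinone, a quinone related to products of lignin) or an equal volume of its solvent DMSO, and were taken at 0, 0.5, 1 and 6 h. The 16 groups held 3 libraries each. Whether these were separate cultures is not stated in the labels, so a p-value here reflects how much the 3 libraries of a group varied, and that variation may be purely technical.

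CARD1, also known as HPCA1, is a receptor kinase of the plasma membrane with leucine-rich repeats outside the cell, and is known to be needed for calcium signals after quinones and hydrogen peroxide. Among the other members are genes of textbook pathways. FLC is a MADS-box repressor of flowering. FIT is a bHLH transcription factor that, with partners of the same family, turns on FRO2, the ferric chelate reductase of the root surface, and IRT1, the iron transporter of the root epidermis. Further members encode secreted proteins of the root and cell wall, such as germins, class III peroxidases, lipid-transfer-like proteins and defensin-like peptides.

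Depth was 4764682 to 14492051 gene counts per library, and 6885421 to 14492051 in the DMBQ libraries. All 80 members passed the filter on low counts there, among 19707 genes tested. A gene could pass it through 1 genotype alone, and some members, such as FLC, ORP4A, AGL14 and CYP82C4, passed only through WT, where they are high. How many members did so is not given here, and the counts of calls below include them. Some libraries stood apart in how gene levels followed transcript length. The Spearman correlation across genes of a library's deviation with transcript length was 0.0357 to 0.185 in the card1 libraries after 0.5 h of DMBQ and -0.447 to -0.408 in the WT ones, and it was -0.535, -0.514 and 0.0857 in the card1 libraries in DMSO at 0 h. Counts of calls over the mean of the 4 times are therefore also given without the 0.5 h libraries. Without replicates 1 and 2 of that card1 group the rule found 107 genes, 76 of them members. Without replicate number 1 in all DMSO groups it found 122 genes, 71 of them members, and it found 78 (52 members) without number 2 and 60 (47 members) without number 3. In whole seedlings, fewer cells of a type and less RNA per cell cannot be told apart.

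The members were lower in card1 in DMBQ as well. By the measure of the rule, the median difference of the members in DMBQ was -1.01 (0 h), -0.99 (0.5 h), -0.77 (1 h) and -0.78 (6 h). Of the 80, 79 were below 0 at all 4 times, and the share of all genes below 0 at all 4 is not given here. For the 18942 other genes with at least 1 CPM in WT under DMSO, the median differences were -0.10, -0.06, -0.07 and -0.04, a small offset that holds for raw CPM. A difference at or under -0.5 at all 4 DMBQ times was found for 45 members, while 0.295% of all genes of the table had one. Single times gave 73 members (0 h), 66 (0.5 h), 62 (1 h) and 63 (6 h), against a background of 2.54%, 4.81%, 2.28% and 2.37% of all genes.

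In edgeR's quasi-likelihood test on the DMBQ libraries, with card1 compared with WT over the mean of the 4 times, 77 of the 80 members were lower in card1 at an adjusted p under 0.05, where 16.6% of all genes tested were called lower. No member was called higher, where 20.2% of all genes tested were, and none was higher at an unadjusted p under 0.05 or in DESeq2. The median log2 fold change of the members was -1.02 (range -3.54 to -0.31), and that of all genes tested was 0.00. AT1G53640, CYP82C4 and FRO5 were not called. Over the mean of 0, 1 and 6 h, without the 0.5 h libraries, 76 members were called lower and 0 higher, against 11.9% and 14.1% of the genes tested. The gene lists further on were tested in the same way, so the counts in them stand against the same 16.6% lower and 20.2% higher, or 11.9% and 14.1% without the 0.5 h libraries.

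Single times gave fewer calls. At 0 h 52 members were lower (background 2.23%), at 0.5 h 55 (11.9%), at 1 h 37 (3.71%) and at 6 h 46 (4.16%), and 0 were higher at any of these times (background 3.7%, 16.9%, 5.69% and 5.53%), with 0 also at an unadjusted p under 0.05 and 0 in DESeq2. The count at 6 h was 25 without WT replicate 1 and 28 without card1 replicate 2 of that time. At all 4 times 26 members were called lower, where at most 2.23% of all genes tested, the share at 0 h, can have been. Another 12 were called lower at 3 times, 16 at 2 times and 18 at 1 time. Shares of all genes for these 3 counts are not given here. The 8 members called at no single time were AT1G53640, LUP5, CYP710A4, DMT2, IRT1, CYP82C4, AT5G19890 and FRO5.

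**Figure D1:**
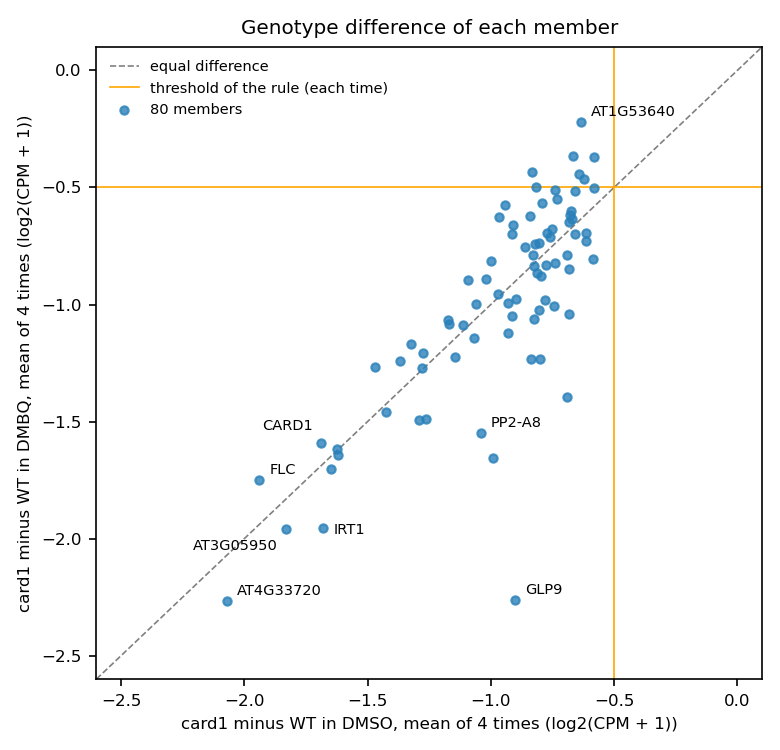
Difference of log2(mean CPM + 1), card1 minus WT, averaged over the 4 times, in DMSO (horizontal axis) and in DMBQ (vertical axis), with a point for each of the 80 members. All points lie below 0 on both axes, most lie near the dashed line of equal difference, and GLP9 lies farthest below it, at -2.26 in DMBQ and -0.90 in DMSO.

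The libraries of the genotypes were separated for many members. All 3 card1 libraries lay below all 3 WT libraries at each of the 4 DMBQ times for 38 members, against 2.58% of the 19021 genes with at least 1 CPM in WT under DMSO. Another 25 members were separated at 3 times, 12 at 2 times, 2 at 1 time and 3 (AT1G53640, CYP710A4 and CYP82C4) at none. For separation at fewer than 4 times the share of all genes is not given here. For 15 members every one of the 12 card1 DMBQ libraries lay below every one of the 12 WT DMBQ libraries, which held for 0.347% of the genes. They were CARD1, FLC, SKIP6, PTB1, LUL4, AGL14, BGLU21, GLP9, PME5, ORP4A, AT1G31950, AT1G44050, AT3G06390, AT5G33355 and AT5G35940. Among them FLC, ORP4A and AGL14 passed the filter on low counts through WT alone. In the card1 DMBQ libraries ORP4A had 1 to 10 counts and AGL14 had 1 to 11.

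The promoter windows below, from the RefSeq annotation of TAIR10.1, run from 250 bases before to 50 bases after the annotated start and are written 5′ to 3′ on the strand of the gene. CARD1 is shown as the gene of the mutant, FLC as the member with the largest called fold change, IRT1 and FRO2 as the uptake genes of the iron group, and AT4G12545 and AIR1 as neighbouring genes that were both lower. Capitals mark matches, on either strand, to the motifs described further on: the W-box core TTGAC, the TGA core TGACG, the G-box CACGTG and the evening element AAAATATCT.
CARD1, chr5:20216082-20216381, plus strand: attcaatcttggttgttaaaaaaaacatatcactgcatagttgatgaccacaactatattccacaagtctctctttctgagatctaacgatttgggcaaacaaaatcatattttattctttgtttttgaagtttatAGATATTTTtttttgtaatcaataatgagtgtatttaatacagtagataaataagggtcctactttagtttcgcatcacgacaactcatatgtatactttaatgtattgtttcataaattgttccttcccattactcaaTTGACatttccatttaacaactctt
FLC, chr5:3179399-3179698, minus strand: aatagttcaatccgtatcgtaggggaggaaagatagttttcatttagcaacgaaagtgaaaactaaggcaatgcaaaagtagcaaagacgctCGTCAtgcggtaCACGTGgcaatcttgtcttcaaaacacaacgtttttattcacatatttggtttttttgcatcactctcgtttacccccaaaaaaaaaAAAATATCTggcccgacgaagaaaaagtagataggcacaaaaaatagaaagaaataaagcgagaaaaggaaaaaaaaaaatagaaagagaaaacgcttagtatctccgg
IRT1, chr4:10707094-10707393, plus strand: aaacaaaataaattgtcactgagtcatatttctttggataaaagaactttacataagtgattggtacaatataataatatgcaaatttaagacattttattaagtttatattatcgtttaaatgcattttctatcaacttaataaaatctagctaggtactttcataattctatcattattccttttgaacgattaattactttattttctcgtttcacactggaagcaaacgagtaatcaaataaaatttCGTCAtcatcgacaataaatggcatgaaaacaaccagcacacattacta
FRO2, chr1:208745-209044, plus strand: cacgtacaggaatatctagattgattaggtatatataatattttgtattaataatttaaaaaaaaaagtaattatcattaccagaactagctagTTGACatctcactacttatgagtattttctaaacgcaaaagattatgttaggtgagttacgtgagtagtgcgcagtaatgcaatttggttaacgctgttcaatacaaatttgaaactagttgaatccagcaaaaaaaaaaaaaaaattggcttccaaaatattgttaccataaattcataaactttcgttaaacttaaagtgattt
AT4G12545, chr4:7433949-7434248, plus strand: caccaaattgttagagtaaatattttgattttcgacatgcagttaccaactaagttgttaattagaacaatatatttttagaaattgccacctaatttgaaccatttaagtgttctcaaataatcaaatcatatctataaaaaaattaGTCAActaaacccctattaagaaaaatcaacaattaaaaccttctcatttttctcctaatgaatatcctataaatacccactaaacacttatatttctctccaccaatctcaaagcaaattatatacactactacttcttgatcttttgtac
AIR1, chr4:7438865-7439164, plus strand: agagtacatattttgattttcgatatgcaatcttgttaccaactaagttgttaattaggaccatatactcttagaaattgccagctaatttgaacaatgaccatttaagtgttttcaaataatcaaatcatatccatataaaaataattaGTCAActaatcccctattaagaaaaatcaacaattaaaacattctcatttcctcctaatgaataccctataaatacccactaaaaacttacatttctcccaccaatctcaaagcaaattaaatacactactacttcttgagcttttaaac

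CARD1 itself (AT5G49760, chromosome 5, 20216332 to 20221382, plus strand) checks the genotype labels. After DMBQ it had 29.1, 28.4 and 28.5 CPM in card1 at 0 h, against 92.2, 99.0 and 97.4 CPM in WT. At 6 h it had 31.1, 33.9 and 31.7 CPM in card1, against 78.1, 93.5 and 92.2 CPM in WT. No card1 library reached the level of any WT library, and the transcript was still counted in every card1 library. Over the 4 times the log2 fold change was -1.55 ± 0.04 (SE, adjusted p = 2.5e-20), or 2.92-fold lower in card1. Its difference did not pass the test for a change over time (adjusted p = 0.0607).

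CARD1 was the only member from a list of 8 receptor kinases of its own subfamily, LRR VIII-1. Of the 7 tested in DMBQ, 4 were lower in card1 and 0 higher, against 16.6% and 20.2% of all genes tested, with a median log2 fold change of -0.20. CARD1, chosen for being lower, is 1 of the 4, and without the 0.5 h libraries 3 were lower, again with CARD1. AT5G49770, the next gene identifier on the chromosome, averaged 4.98 CPM in card1 and 7.76 CPM in WT (log2 -0.55 ± 0.11, adjusted p = 0.000456). AT5G37450 averaged 1.00 CPM in card1 and 1.95 CPM in WT (log2 -0.98 ± 0.27, adjusted p = 0.00584), and AT5G01950 differed by -0.16 ± 0.05 (adjusted p = 0.0133). AT1G06840, AT1G79620 and AT5G49780 were not called.

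FLC (AT5G10140) had the largest fold change among the members called lower. At 0 h of DMBQ it had 0.869, 0.107 and 0.215 CPM in card1, against 3.00, 3.15 and 2.51 CPM in WT. At 6 h it had 0.322, 0.110 and 0 CPM in card1, against 5.13, 1.88 and 2.33 CPM in WT. The genotypes did not overlap in any DMBQ library, although the WT level was itself low. In DMBQ, FLC had 0 to 9 counts per card1 library and 13 to 55 per WT library. It passed the filter on low counts through WT alone, and the size of its fold change rests on few card1 counts. The log2 fold change was -3.49 ± 0.30 (adjusted p = 1.24e-08), with 0.281 CPM on average in card1 and 3.31 CPM in WT. FLC was also low in card1 in DMSO, where its highest card1 library had 0.791 CPM and its lowest WT library 3.04 CPM, values that the rule used.

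FLC belongs to a clade of related MADS-box repressors, the MAF genes, which were on a list with FT and SOC1, genes that promote flowering. Of the 7 tested, 4 were lower in card1 and 0 higher, against 16.6% and 20.2% of all genes tested, and 3 were lower without the 0.5 h libraries. Both counts include FLC, which was chosen for being lower. MAF2 averaged 32.9 CPM in card1 and 45.3 CPM in WT (log2 -0.39 ± 0.05, adjusted p = 9.01e-07), and MAF4 averaged 1.35 CPM in card1 and 2.38 CPM in WT (-0.74 ± 0.13, adjusted p = 8.35e-05). MAF5 was near the detection limit, with card1 averaging 0.352 CPM and WT 0.754 CPM (-1.13 ± 0.33, adjusted p = 0.00928). SOC1, which FLC is known to repress, averaged 16.9 CPM in card1, against 19.4 CPM in WT (-0.12 ± 0.07, adjusted p = 0.159), so the test gave no call for it. AGL14, a further MADS-box factor known from roots, was a member outside the list and had 0.134 to 1.12 CPM over the 12 card1 DMBQ libraries and 1.2 to 3.38 CPM over the 12 WT ones.

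PTB1, SKIP6 and LUL4 were, with CARD1, among the members with the smallest adjusted p. PTB1, an RNA-binding protein that regulates splicing, had 7.53, 11.1 and 5.79 CPM in card1 at 0 h of DMBQ, against 23.5, 24.4 and 27.9 CPM in WT. SKIP6, an F-box protein that binds the ubiquitin ligase subunit SKP1, had 16.0, 15.7 and 16.4 CPM in card1, against 34.9, 41.2 and 34.5 CPM in WT. LUL4, a RING-type ubiquitin ligase, had 2.41, 1.82 and 2.22 CPM in card1, against 7.38, 8.21 and 10.1 CPM in WT. No card1 library overlapped a WT library for these genes. Over the 4 times their log2 fold changes lay between -1.86 and -1.56 for PTB1, between -1.36 and -1.10 for SKIP6 and between -2.21 and -1.71 for LUL4. For the mean of the times the values were -1.71 ± 0.08 for PTB1 (adjusted p = 1.05e-14), -1.25 ± 0.04 for SKIP6 (2.84e-17) and -1.96 ± 0.11 for LUL4 (5.11e-13). The test for a change over time gave adjusted p = 0.609, 0.407 and 0.642. PTB1 and SKIP6 overlap another annotated gene, and since the strand setting of the counting is not given in the sources used here, their counts are uncertain to that extent.

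**Figure D2:**
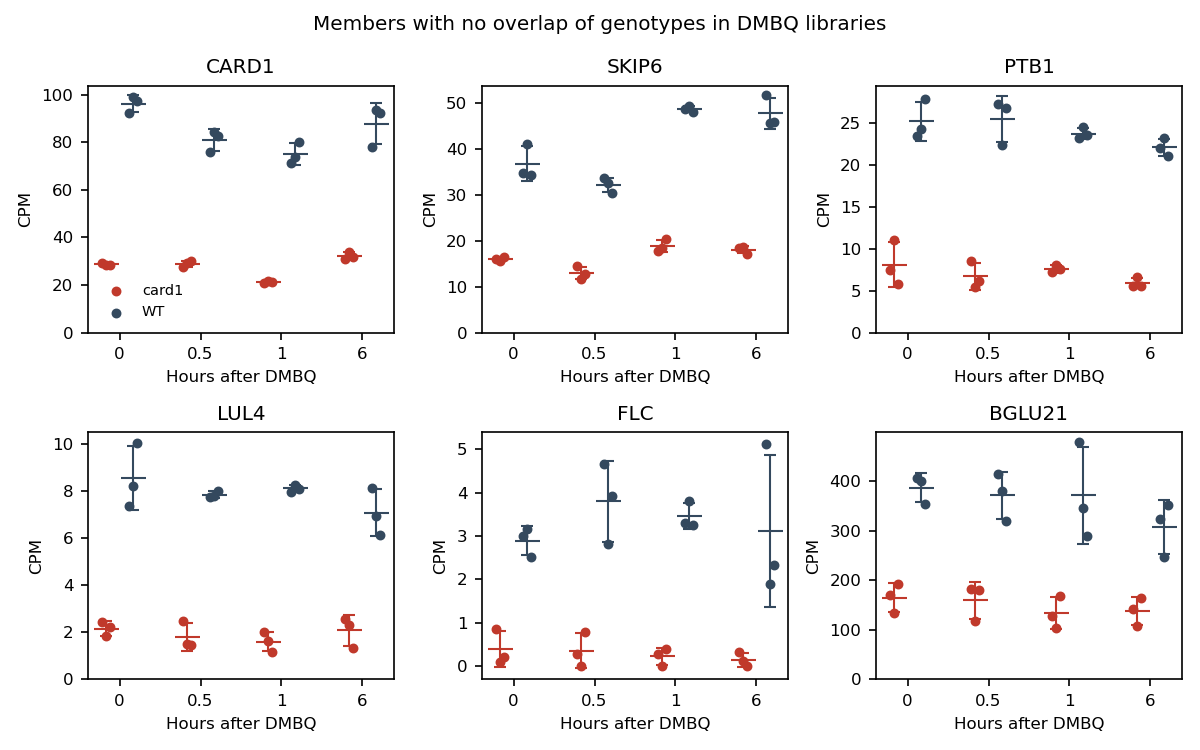
CPM of 6 members in each DMBQ library at 0, 0.5, 1 and 6 h, card1 left of WT at each time, with the mean (dash) and SD (bar) of the 3 libraries. In all 6 panels every card1 point lies below every WT point.

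Iron uptake was represented by FIT, IRT1, FRO2 and CYP82C4. FIT (annotated as FRU) had 1.83, 2.68 and 2.36 CPM in card1 at 0 h of DMBQ, against 4.63, 6.11 and 5.15 CPM in WT. At 1 h it had 3.63, 6.11 and 8.34 CPM in card1, against 8.79, 13.0 and 14.4 CPM in WT, and at 6 h the genotypes overlapped. Its log2 fold change over the 4 times was -0.78 ± 0.14 (adjusted p = 0.00012).

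IRT1 had 7.92, 3.11 and 2.43 CPM in card1 at 0 h of DMBQ, against 62.0, 59.5 and 14.2 CPM in WT. At 1 h it had 17.9, 7.38 and 0.782 CPM in card1, against 32.3, 17.2 and 2.30 CPM in WT. Libraries of 1 group thus differed severalfold, the genotypes overlapped at 0.5 h and 1 h, and no single time passed the test. Over the 4 times IRT1 was lower in card1 (log2 -2.01 ± 0.49, adjusted p = 0.00385).

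FRO2 had the same wide spread, with 2.80, 2.47 and 2.43 CPM in card1 at 0 h of DMBQ, against 36.9, 38.0 and 6.46 CPM in WT. Its log2 fold change was -1.87 ± 0.44 over the 4 times (adjusted p = 0.0035), and 0 h was the only time called. Replicate 3 was the lowest WT library for FRO2 at all 4 DMBQ times, with 6.46, 4.01, 2.38 and 5.41 CPM. The test over the 4 times treated such libraries as independent. Membership of IRT1, FRO2 and CYP82C4 rested on replicate 2 of the DMSO libraries: without that replicate number they did not meet the rule. IRT1, for example, had 33.8, 4.12 and 0.441 CPM in card1 in DMSO at 0 h, against 34.1, 71.4 and 12.2 CPM in WT. FIT did not meet the rule without replicate 3 of the DMSO libraries.

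CYP82C4, a cytochrome P450 that hydroxylates an iron-mobilising coumarin, was at 0 in 10 of the 12 card1 DMBQ libraries, where 2 others had 0.581 and 1.07 CPM. WT had 5.75, 2.48 and 0 CPM at 0 h and 0, 0.435 and 0 CPM at 6 h. It was not called (adjusted p = 0.177), except in fits with a replicate block, described further on. The CYP82C4 transcript is 91.5% identical to that of AT4G31970, so its few counts are uncertain. FRO5, a relative of FRO2 known to act in copper uptake, was not called either (log2 -0.46 ± 0.18, adjusted p = 0.0501), and its transcript is 91.4% identical to that of AT5G23980. IREG2 and MTPA2, which carry nickel or cobalt and zinc into the root vacuole, are members outside the list. IREG2 had 3.67, 4.08 and 3.86 CPM in card1 at 0 h of DMBQ, against 8.01, 8.88 and 7.30 CPM in WT.

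Beyond its 4 members, the iron list held 16 genes. Of the 18 tested, 9 were lower in card1 and 1 was higher, against 16.6% and 20.2% of all genes tested, with a median log2 fold change of -0.50. Of the 9, 3 were members, chosen for being lower, and 6 were not. The partners of FIT were among the lower ones: BHLH38 averaged 1.41 CPM in card1 and 2.78 CPM in WT (log2 -1.11 ± 0.18, adjusted p = 2.06e-05), and BHLH39 averaged 4.94 CPM in card1 and 8.60 CPM in WT (-0.84 ± 0.13, adjusted p = 1.74e-05). BHLH100 (-1.67 ± 0.43) and BHLH101 (-0.54 ± 0.21) were lower too, as was F6'H1, the enzyme that opens coumarin synthesis (-0.56 ± 0.08, adjusted p = 6.36e-06). FRO3 differed by -0.13 ± 0.04 (adjusted p = 0.0177). FER1, the iron store protein ferritin, was higher, averaging 119 CPM in card1, against 98.2 CPM in WT (log2 0.31 ± 0.08, adjusted p = 0.00438). Without the 0.5 h libraries 8 genes of the list were lower, 5 of them non-members, and 1 was higher.

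**Figure D3:**
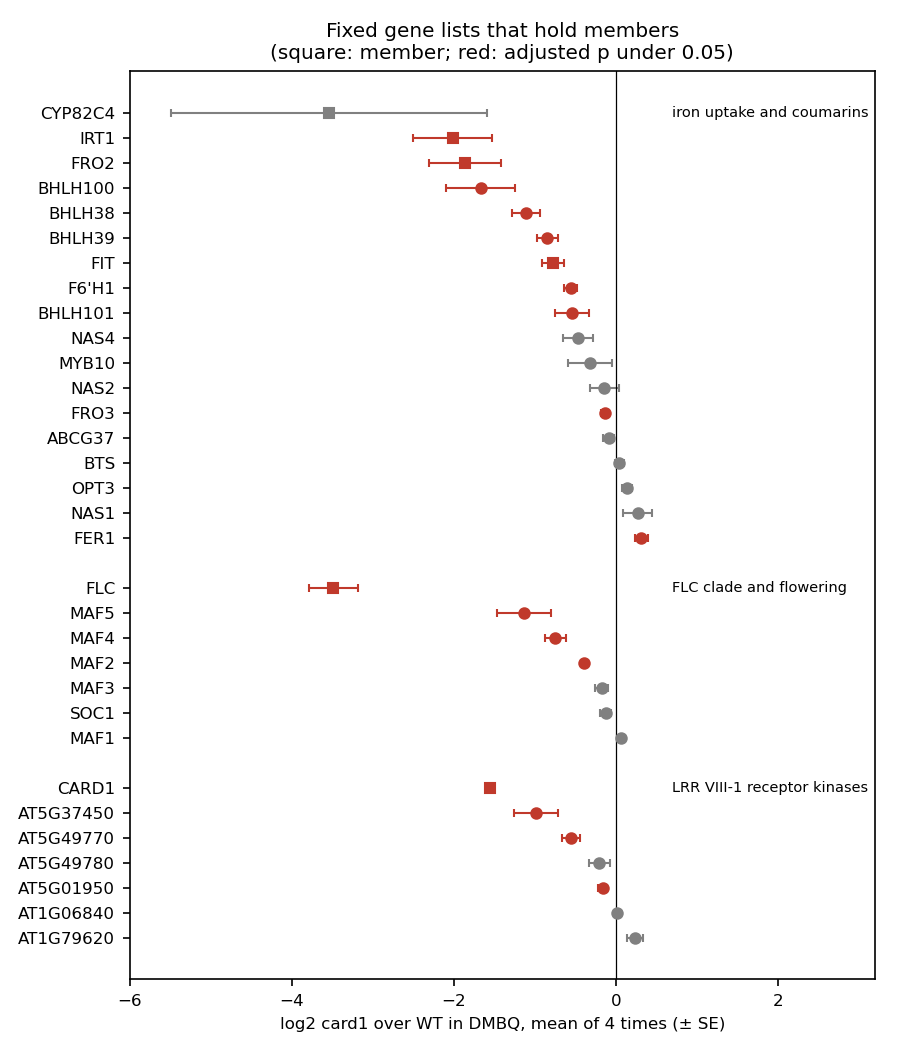
log2 fold change, card1 over WT, in DMBQ over the mean of 4 times, with its SE, for the tested genes of 3 lists that hold members. Squares are members and red marks an adjusted p under 0.05, and 9 of the 18 iron genes, 4 of the 7 FLC and flowering genes and 4 of the 7 receptor kinases are red and below 0.

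Secreted proteins and cell wall enzymes were grouped by annotated family, with the families picked after the members were seen. Of all genes with at least 1 CPM in WT under DMSO, 0.415% were members. The families included 6 lipid-transfer-like genes (of 49 such genes with at least 1 CPM), 3 peroxidases (of 47), 3 germins or cupins (of 24) and 3 defensin-like genes (of 11). A further 2 chitinases (of 9), 2 CAP proteins (of 12) and 2 mannose-binding lectins (of 20) were members, as were 3 proline- or hydroxyproline-rich cell wall proteins (of 117). Families of enzymes and kinases held 2 terpenoid cyclases (of 10), 2 ferric reduction oxidases (of 7), 2 glutathione S-transferases (of 41), 3 cytochromes P450 (of 131) and 4 protein or receptor kinases (of 1065), and 2 members had a C1 domain (of 80). No test was made on these counts.

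The germin family held the most abundant transcript per length. GER3, a germin-like protein of the cell wall, had 374 CPM per kb of transcript in WT under DMSO, followed by AIR1 with 218 and BGLU21 with 204. At 0 h of DMBQ, GER3 had 98.0, 55.2 and 70.0 CPM in card1, against 153, 184 and 156 CPM in WT. By 6 h it was high in both genotypes, with 646, 677 and 476 CPM in card1, against 975, 894 and 906 CPM in WT. The genotypes did not overlap at either time, and the log2 fold change over the 4 times was -1.01 ± 0.08 (adjusted p = 1.63e-08).

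GER3 is known to cycle with the circadian clock, and clock genes also differed between the genotypes in DMBQ. Of 14 on the list, 5 were lower and 7 higher in card1, against 16.6% and 20.2% of all genes tested, and 5 were lower and 3 higher without the 0.5 h libraries. LHY averaged 28.9 CPM in card1 and 11.4 CPM in WT (log2 1.47 ± 0.34, adjusted p = 0.00295), and ELF4 averaged 12.4 CPM in card1 and 19.2 CPM in WT (-0.98 ± 0.07, adjusted p = 2.04e-10). Their part in the levels of GER3 was not tested.

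GLP9, another germin-like protein, had its largest difference after 0.5 h of DMBQ. It had 1.02, 1.74 and 1.70 CPM in card1 at that time, against 19.1, 22.5 and 24.4 CPM in WT. At 0 h it had 2.22, 2.25 and 1.43 CPM in card1, against 6.63, 4.20 and 4.43 CPM in WT. The card1 libraries stayed between 0.881 and 3.56 CPM throughout, while the WT libraries were high at 0.5 and 1 h. In DMSO at 0.5 h it had 4.67, 1.78 and 1.32 CPM in card1, against 5.52, 5.27 and 2.91 CPM in WT. The log2 fold change in DMBQ was -1.28 at 0 h, -3.78 and -3.44 after 0.5 and 1 h, and -2.30 at 6 h. The difference changed over time (adjusted p = 0.00357). Such a change was called for 3 members, against 11.6% of all genes tested, and for 7 without card1 replicate 2 of 0 h and 5 without WT replicate 1 of 1 h.

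PP2-A8, a lectin-like protein related to those of the phloem, was the second such member (adjusted p = 0.000944). After 0.5 h of DMBQ it had 1.02, 0.937 and 0.653 CPM in card1, against 10.5, 12.5 and 9.14 CPM in WT. At 6 h it had 3.87, 4.29 and 4.27 CPM in card1, against 6.38, 7.25 and 4.18 CPM in WT, and the genotypes overlapped. AT3G01190, a class III peroxidase, was the other (adjusted p = 0.0302). It had 12.9, 20.2 and 17.1 CPM in card1 at 0 h of DMBQ, against 45.4, 55.5 and 54.6 CPM in WT. By 6 h it had 44.8, 35.6 and 45.5 CPM in card1, against 74.8, 68.0 and 69.9 CPM in WT, a log2 fold change of -0.71 where that at 0 h was -1.53. The WT libraries at 0.5 h are those that stood apart by transcript length, and with an offset for length and GC content 2 members were called for such a change, PP2-A8 (adjusted p = 0.00529) and GLP9 (adjusted p = 0.0187), while AT3G01190 was not (adjusted p = 0.0801).

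**Figure D4:**
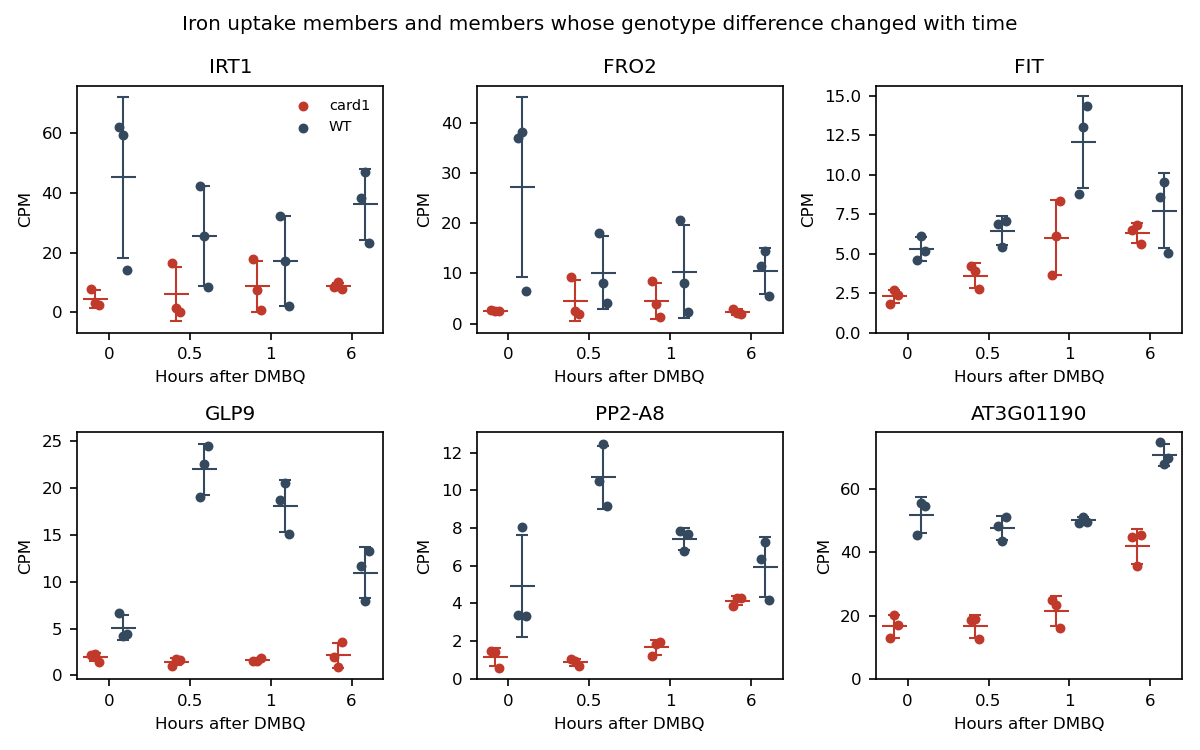
CPM of 3 iron uptake members and of the 3 members whose genotype difference changed over time, in each DMBQ library at 0, 0.5, 1 and 6 h, card1 left of WT, with the mean (dash) and SD (bar) of the 3 libraries. IRT1 and FRO2 have the widest spread within a group, and GLP9 and PP2-A8 have their highest WT values at 0.5 h.

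AIR1 and AT4G12545, which start 4.92 kb apart on chromosome 4 and encode small lipid-transfer-like proteins, AIR1 being known from auxin-treated root cultures, were both lower in card1. At 0.5 h of DMBQ, AIR1 had 64.6, 46.0 and 48.3 CPM in card1, against 144, 174 and 218 CPM in WT. AT4G12545 had 23.8, 25.6 and 17.2 CPM in card1, against 54.9, 50.3 and 94.7 CPM in WT. The genotypes did not overlap for either gene at that time, and AIR1 differed by -1.40 ± 0.21 on the log2 scale over the 4 times (adjusted p = 7.11e-05). Their promoter windows, printed above, shared 268 of 314 alignment columns (85.4%). By the same alignment the windows of IRT1 and FRO2, on different chromosomes, shared 189 of 343 (55.1%). AT5G46890 and AT5G46900, 3.41 kb apart and 94.5% identical as transcripts, are another pair of this family, and reads from them may be exchanged or lost in counting. The promoter windows of that pair shared 211 of 350 columns (60.3%).

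AT4G16260, annotated in the glycosyl hydrolase superfamily, had 70.0, 64.3 and 44.6 CPM in card1 at 0 h of DMBQ, against 161, 113 and 186 CPM in WT. At 6 h it had 144, 65.6 and 139.6 CPM in card1, against 174, 139.5 and 157 CPM in WT. The genotypes overlapped at 1 and 6 h, and 0 h was the only time called (log2 -0.76 ± 0.17 over the 4 times, adjusted p = 0.0021).

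BGLU21, a beta-glucosidase of root endoplasmic reticulum bodies, had 170, 133 and 192 CPM in card1 at 0 h of DMBQ, against 407, 402 and 354 CPM in WT. Its log2 fold change was -1.19 ± 0.12 (adjusted p = 8.41e-07), with the genotypes apart at all 4 times. It shares 90.3% identity with its closest copy. PME5, a pectin methylesterase, had 35.3, 37.1 and 28.5 CPM in card1 at 0.5 h of DMBQ, against 73.1, 71.8 and 73.0 CPM in WT (log2 -0.92 ± 0.06 over the 4 times, adjusted p = 9.28e-10). The defensin-like gene AT5G33355 had 3.63, 1.74 and 0.783 CPM in card1 at that time, against 8.27, 9.77 and 11.6 CPM in WT (-1.78 ± 0.15, adjusted p = 3.23e-09). The extensin-like AT1G26250 had 127, 78.8 and 85.6 CPM in card1 at 6 h, against 266, 238 and 263 CPM in WT (-1.44 ± 0.12 over the 4 times, adjusted p = 1.23e-07).

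The CAP family gene AT4G33720, singled out after its values were seen, had the most negative mean difference by the rule's measure, at -2.27 in DMBQ and -2.07 in DMSO. It had 0.869, 0.215 and 0.0715 CPM in card1 at 0 h of DMBQ, against 16.0, 5.06 and 26.1 CPM in WT. Its libraries overlapped at 1 h, where card1 had 5.27, 0.115 and 0.130 CPM and WT had 13.9, 4 and 3.49 CPM. The cupin AT3G05950 varied in the same way, with 8.54, 0.991 and 6.61 CPM in card1 at 6 h, against 32.6, 18.3 and 24.6 CPM in WT (log2 -2.68 ± 0.48 over the 4 times, adjusted p = 0.00035).

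Among transport and metabolism genes, NRT1.5, which loads nitrate into the xylem, had 178, 108 and 94.4 CPM in card1 at 6 h of DMBQ, against 371, 290 and 217 CPM in WT. At 0.5 h its libraries overlapped, with 181, 102 and 77.8 CPM in card1 and 132, 197 and 141 CPM in WT, and they also overlapped at 1 h. Its log2 fold change over the 4 times was -0.62 ± 0.16 (adjusted p = 0.00613). FTM1, a stearoyl-ACP desaturase-like protein, had 20.5, 9.47 and 45.4 CPM in card1 at 6 h, against 231, 177 and 140 CPM in WT, and differed by -1.61 ± 0.26 over the 4 times (adjusted p = 0.000173). For NRT1.5 and FTM1, 6 h was the only time called. LBD41, a LOB-domain factor known among genes induced by low oxygen, had 21.8, 18.1 and 17.9 CPM in card1 at 0 h, against 43.1, 55.5 and 56.1 CPM in WT. NRT1.5 did not meet the rule without replicate 3 of the DMSO libraries, FTM1 without replicate 1 or 3, and LBD41 without replicate 2 or 3. The aspartyl protease family gene AT3G51330 (log2 -0.70 ± 0.06, adjusted p = 4.7e-09) and the protein kinase family gene AT1G65190 (-0.70 ± 0.07, adjusted p = 2.48e-08) had small but steady differences. AT1G65190 had 43.5, 40.2 and 43.4 CPM in card1 at 6 h, against 72.9, 73.2 and 65.9 CPM in WT, and for both genes the genotypes were apart at all 4 times. The terpenoid cyclase family gene AT1G31950 had a log2 fold change of -0.64 ± 0.05 (adjusted p = 3.58e-09), with 8.48 to 12.4 CPM over the 12 card1 DMBQ libraries and 13.5 to 20.1 CPM over the 12 WT ones.

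The least changed members in DMBQ were AAE18, AT2G18980, AT4G22810, FRO5 and GH9B13, with log2 fold changes of -0.31 to -0.46. AT1G53640, annotated as an uncharacterized protein, overlapped between the genotypes at every DMBQ time, with 0.386, 0.644 and 0.501 CPM in card1 and 0.125, 0.478 and 0.598 CPM in WT at 0 h. At the edge of the rule, scpl2, ATGSTF13 and AAE18 lay just inside, with least negative DMSO differences of -0.502, -0.504 and -0.506. NSP3, RLP3 and AT3G46400 lay just outside, at -0.4996, -0.4969 and -0.496.

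**Figure D5:**
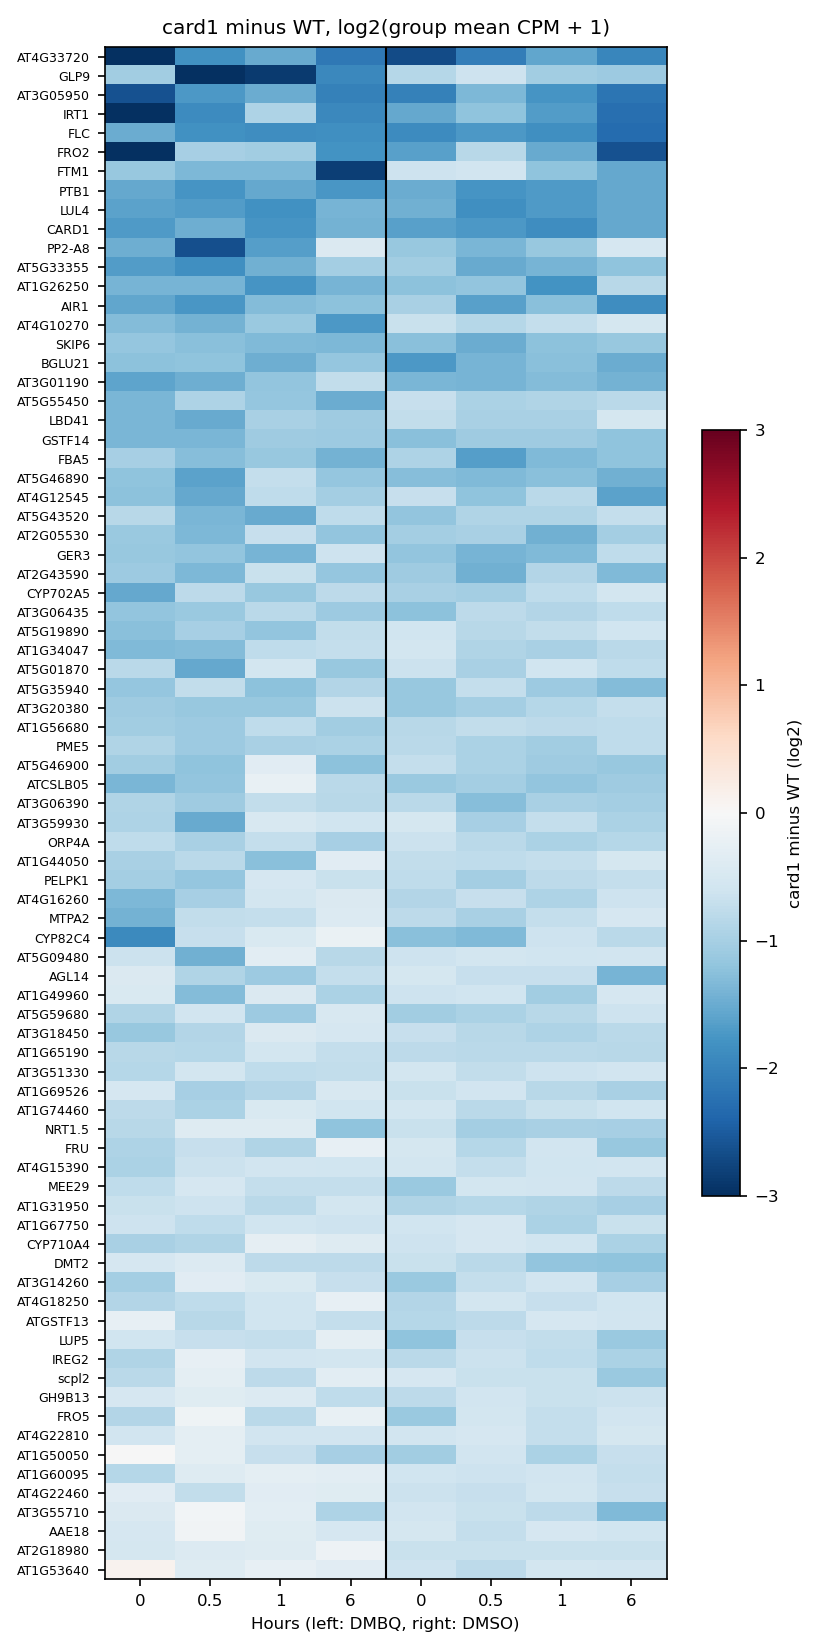
Difference of log2(mean CPM + 1), card1 minus WT, of each of the 80 members (rows, sorted by their mean in DMBQ) at 0, 0.5, 1 and 6 h in DMBQ (left) and in DMSO (right), with blue for lower in card1. Blue fills nearly the whole map, and AT1G53640 at 0 h of DMBQ is the only cell above 0.

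As levels averaged over both genotypes, the members moved over the DMBQ time course in both directions. Compared with 0 h, 6 members were higher and 5 lower at 0.5 h (12.7% and 14.3% of the genes tested), 8 were higher and 12 lower at 1 h (18% and 18.1%), and 27 were higher and 6 lower at 6 h (24% and 24.9%). AT3G05950, GER3, AT1G26250 and GSTF14 were among the 27, and FBA5, an aldolase, was among those lower at 6 h. FBA5 had 10.2, 8.59 and 8.43 CPM in card1 at 6 h, against 28.6, 21.3 and 27.9 CPM in WT. Its 0 h levels were 30.7, 34.1 and 27.4 CPM in card1, against 43.4, 96.2 and 48 CPM in WT, so that card1 lay below WT at both times.

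Members lay on all 5 chromosomes, 21 on chromosome 1, 7 on 2, 15 on 3, 19 on 4 and 18 on 5. Chromosome 4 held 23.8% of the members and 15.4% of the genes with at least 1 CPM, and chromosome 2 held 8.75% and 15.2%. Of 121 windows of 1 Mb, 69 held no member, 34 held 1, 11 held 2 and 7 held 3 to 5. The window with 5 members, at 8000001 to 9000000 on chromosome 4, held DMT2, GLP9, ATCSLB05, AT4G15390 and CYP702A5 among 187 genes with at least 1 CPM.

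Runs of at least 3 members with starts at most 200 kb apart numbered 3 and held 10 members. GSTF14, AT1G49960 and AT1G50050 spanned 90.5 kb of chromosome 1. AT3G05950, LUL4, AT3G06390 and AT3G06435 spanned 190 kb of chromosome 3, and ATCSLB05, AT4G15390 and CYP702A5 spanned 85.8 kb of chromosome 4. For the other genes within these spans with at least 1 CPM the median difference in DMBQ was -0.10 for 16 genes, -0.07 for 39 genes and -0.26 for 5 genes, and 1 of them was under -0.5. PTB1 and AT3G01190 formed 1 of 6 further pairs, 15.5 kb apart near the start of chromosome 3. Within 2 Mb of CARD1 lay 4 members, CARD1 included (AT5G46890, AT5G46900 and PME5), which is 5% of the members, against 3.64% of genes with at least 1 CPM. That 5% counts CARD1, on which the interval is centred, and the near-identical neighbours AT5G46890 and AT5G46900. For the 685 other genes there with at least 1 CPM the median difference in DMBQ was -0.07, and 8 were at or under -0.5.

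A search of the 80 promoter windows for 7 motifs found at least 1 match in 64. The W-box core TTGAC, the core of sites that WRKY factors bind, was in 48 (60%), against 50.5% of 26711 windows of all genes. The TGA core TGACG, of bZIP sites, was in 15 (18.8%, against 23.1%), and it overlaps the W-box core where the letters TTGACG occur. The G-box CACGTG, of bHLH and bZIP sites, was in 4 (5%, against 7.79%), and the evening element AAAATATCT, of clock factors, was in 3 (3.75%, against 2.86%). The GCC-box GCCGCC was in 3 (3.75%, against 2.55%), the DRE core ACCGAC in 1 (1.25%, against 5.71%) and the heat shock element core GAANNTTC in 6 (7.5%, against 11.5%). Both strands were searched, and a match is a run of letters, not a bound site.

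Tissue markers were summed per library. In DMBQ the 13 root markers summed to 2256 to 3000 CPM over the card1 libraries and 2036 to 2787 CPM over the WT ones, with 3 lower (WER, TIP2;3 and PHO1) and 1 higher (PYK10) in card1, and the same counts without the 0.5 h libraries. PYK10 made up most of that sum, and the 12 other root markers summed to 249.8 to 443 CPM in card1 (mean 315) and 276 to 542 CPM in WT (mean 363). In DMSO, where the members were chosen, those 12 summed to 247 to 365 CPM in card1 (mean 292) and 315 to 446 CPM in WT (mean 359). All of them averaged lower in card1 there, by unequal amounts. PHO1, the largest part of the sum, averaged 143 CPM in card1 and 183 CPM in WT. SCR averaged 47.5 CPM in card1 and 51.5 CPM in WT, and CASP1 17.7 and 19.3 CPM. In DMBQ the median log2 fold change of the 13 root markers was 0.005, or -0.07 without the 0.5 h libraries. The 14 shoot markers summed to 38607 to 57804 CPM in card1 and 36944 to 53764 CPM in WT, with 0 lower and 4 higher with and without the 0.5 h libraries. The 20 root hair genes summed to 143 to 371 CPM in card1 and 138 to 347 CPM in WT, with 0 lower and 9 higher, or 3 higher without the 0.5 h libraries. Seed storage transcripts, remnants of the embryo, summed to 0.483 to 26.8 CPM in card1 and 1.14 to 145 CPM in WT in DMBQ, and to 0.405 to 255 CPM in card1 and 2.73 to 99.6 CPM in WT in DMSO. At 0 h of DMBQ they averaged 4.6 CPM in card1 and 96.1 CPM in WT. Of their 9 genes 5 were lower in card1 and 0 higher in DMBQ, with a median log2 fold change of -2.05, and 6 were lower without the 0.5 h libraries. OLEO2 and SESA1 were at 0 in 14 of the 48 libraries each. Their part in the levels of the members was not tested.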

How the data were processed

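The values used are counts of reads per gene in 48 libraries, deposited by the authors as 1 table. The submitters' processing notes name the TAIR10 genome, the aligner HISAT2 (2.1.0) and the counter HTSeq (0.6.1). Trimming, strand setting and annotation version: not given in the sources used here. Genes that overlap another gene, on either strand, or have a near-identical copy thus carry uncertain counts. Library sizes and tests used genes only, without the 5 entries that name none. Of the reads entered per library, 6.53 to 13.3% were not unique, 2.64 to 7.25% not aligned, 1.28 to 2.08% outside any feature and 0.655 to 0.735% ambiguous. Depth was 4764682 to 14492051 gene counts per library. No library was a copy of another of its group: over the 48 pairs, chi-square per degree of freedom was 2.07 to 15.6. Symbols, lengths and positions came from the TAIR10.1 annotation, which held 32835 of the identifiers (97.7%).

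The rule was applied to CPM from column sums with a pseudocount of 1. The 24 DMBQ libraries were fitted alone with edgeR 4.0.16 (R 4.3.3): filterByExpr with a minimum count of 10, TMM factors (0.925 to 1.071), robust quasi-likelihood fit with a mean per group, and Benjamini-Hochberg adjustment over all 19707 genes tested, called at 0.05. The contrasts were card1 against WT at each time and as a mean, the change of that difference over time, and each later time against 0 h. The fit was tested on simulated data. Alternatives were RLE factors, DESeq2 1.42.0, other filters, all 48 libraries in 1 fit, a replicate block, an offset for transcript length and GC content (known for 99.4% of the genes tested), leaving out each library, and other settings of the rule.

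The members, the 14 gene lists and the motifs were chosen with earlier results of these data known. The genes named are CARD1; the 15 members with the smallest adjusted p in DMBQ; the 5 least changed; the 8 with the highest CPM; members in runs of neighbours or on a list; the 3 just inside and 3 just outside the threshold; and the 4 with the smallest p for a change over time. Others were picked after their values were seen.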

Additional observations from a re-analysis of the deposited data

Results flagged for a closer look

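The difference between card1 and WT itself changed over the DMBQ time course for 3 of the 80 members in edgeR's quasi-likelihood test, where 11.6% of all genes tested were called. The number was 2 to 7 when each library was left out in turn and 7 with a replicate block. Shares of all genes in those fits are not given here. PP2-A8 passed at an adjusted p of 0.000944, with a log2 fold change of -3.52 at 0.5 h and -0.47 at 6 h. GLP9 passed at an adjusted p of 0.00357, with -1.28 at 0 h and -3.78 at 0.5 h. AT3G01190 passed at an adjusted p of 0.0302, with -1.53 at 0 h and -0.71 at 6 h. In all 3 the card1 mean lay below the WT mean at every time. The WT libraries at 0.5 h also differed from the others in how levels followed transcript length. With an offset for length and GC content PP2-A8 (adjusted p = 0.00529) and GLP9 (adjusted p = 0.0187) passed and AT3G01190 did not (adjusted p = 0.0801). DESeq2 called AT3G01190 (adjusted p = 0.0036) and gave no adjusted p for the other two.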

How the results depend on the processing

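The size of the set depended on the rule. A threshold of -0.3 gave 337 genes, -0.75 gave 26 and -1 gave 14, and a pseudocount of 0.5 gave 124 and of 5 gave 31. TMM-scaled CPM gave 57, all of them members. Leaving a replicate number out of the DMSO groups gave 60 to 122 genes, with 122 without replicate 1, and 30 of the 80 members met the rule in each such set while 3 met it in none. Differences at 0.5, 1 and 6 h only, an alternative chosen after seeing the data, gave 136, and leaving out the card1 DMSO libraries of 0 h with a steep length trend, also chosen so, gave 107. With starts at most 500 kb apart, 29 members lay in runs, where 200 kb gave 10.

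The number of members called lower in DMBQ over the 4 times was 75 to 78 when each library was left out in turn, and 75 to 79 under the other alternatives. Leaving out each library of a time gave 35 to 43 members at 0 h, 47 to 56 at 0.5 h, 29 to 34 at 1 h and 25 to 41 at 6 h. For the time course, the ranges were 4 to 5 lower and 4 to 8 higher at 0.5 h, 8 to 12 and 6 to 9 at 1 h, and 5 to 8 and 23 to 28 at 6 h. The number whose difference changed over time was 2 to 7, with 7 without card1 replicate 2 of 0 h and 5 without WT replicate 1 of 1 h. Between card1 and WT at the same time, libraries of 1 replicate number did not deviate together throughout (correlations of -0.0896 to 0.294, 7 of 12 over 0.1). Whether they deviated together across the times of 1 genotype was not tested. Without a block, the tests over the 4 times treated the libraries of all times as independent. With a replicate block, 78 members were lower over the 4 times, 58, 60, 45 and 51 at the single times, and 7 changed over time. Shares of all genes under the block are not given here. Whether the counts rose for the members in particular thus cannot be read from them. CYP82C4 was called under the block (log2 -3.62 ± 0.75, adjusted p = 0.000534), and FRO5 under several alternatives. The causes were not tested. No named gene turned its direction. Members under 10 CPM in WT rest on few counts.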

Other observations

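Lists that hold no member were counted in DMBQ over the mean of the 4 times, where 16.6% of all genes tested were lower in card1 and 20.2% higher (11.9% and 14.1% without the 0.5 h libraries). Of 13 genes of aliphatic glucosinolate synthesis tested, 7 were higher in card1 and 0 lower, with a median log2 fold change of 0.35, and 5 were higher without the 0.5 h libraries. Among 14 salicylic acid and immunity genes 3 were lower and 2 higher (2 and 1 without the 0.5 h libraries), among 17 jasmonate genes 2 were lower and 0 higher (1 and 0), and among 10 flavonoid and anthocyanin genes 0 were lower and 2 higher (0 and 2). Phosphate starvation genes were higher in 3 of 10 and lower in 0, with and without the 0.5 h libraries. None of the 6 cold response genes tested was called.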
